A study of Mus musculus with 12 samples.

Results

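The mitochondrial carrier family comprises the genes named Slc25a followed by a number, which encode the transport proteins of the mitochondrial inner membrane and a few relatives in other membranes. Transcript clusters of the array were taken whose annotation symbol had that form, leaving out Slc25a1, the citrate carrier, and keeping the brightest cluster of each gene. The rule gave 45 genes with 1 cluster each, of 19480 named genes and 22104 clusters in all. With 1 cluster per gene, no measured value decided which genes entered.

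RNA came from 3T3-L1 adipocytes, fat cells made in culture from a mouse preadipocyte line, on day 8 of differentiation. There were 4 groups of 3 arrays. Controls received the vehicles ethanol and DMSO, another group alpha-linolenic acid (ALA, 50 µM, with 2% albumin free of fatty acids in the medium), the next an inhibitor of the delta-6-desaturase (D6D, 5 µM), and the last group ALA with the inhibitor. Treatment lasted from day 0 to day 8, and all cultures received the same differentiation cocktail followed by medium with insulin at 5 µg/ml. Within each group 1 array came from cells of passage 6, 1 from passage 7 and 1 from passage 8. ALA is an omega-3 fatty acid of plant oils, and D6D catalyses the first step that converts it to longer omega-3 fatty acids. The sources used here give neither the inhibitor's name nor whether albumin and vehicle were matched between the groups. All cultures belong to 1 cell line, so each p-value measures the spread between cultures of that line.

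Carriers of this family move metabolites between the cytosol and the mitochondrial matrix: ADP against ATP, phosphate, carboxylic acids, amino acids, acylcarnitines, nucleotides, coenzymes and glutathione. Each protein spans the inner membrane as 3 similar repeats and exchanges one substrate for another through a central cavity. In fat cells they link the mitochondrion to fatty acid synthesis, to fatty acid oxidation and to the supply of ATP.

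Upstream sequence is shown for both pyrimidine nucleotide carriers, because Slc25a33 differed most between passages while its relative Slc25a36 did not pass the test. The stretches run 5′ to 3′ on the coding strand and end just before the annotated start (RefSeq, GRCm38.p6). Both genes lie on the minus strand, Slc25a33 at chr4:149774268-149774467 and Slc25a36 at chr9:97111042-97111241. Capitals mark the E-box CACGTG, the cyclic AMP response element TGACGTCA, the CCAAT box and the GC box GGGCGG, on either strand.
Slc25a33: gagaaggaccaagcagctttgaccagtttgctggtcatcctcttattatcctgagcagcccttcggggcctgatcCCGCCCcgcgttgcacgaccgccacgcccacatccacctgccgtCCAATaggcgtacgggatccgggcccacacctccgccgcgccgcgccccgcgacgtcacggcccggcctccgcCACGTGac
Slc25a36: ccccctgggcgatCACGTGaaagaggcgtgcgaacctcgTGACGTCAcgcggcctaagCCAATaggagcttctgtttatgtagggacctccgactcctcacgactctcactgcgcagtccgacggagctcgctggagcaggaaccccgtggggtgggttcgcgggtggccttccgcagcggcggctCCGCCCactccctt
Slc25a33 had an E-box whose first base lay 8 bases before its start, a CCAAT box at 81 and a GC box at 125. Slc25a36 had a GC box at 14, a CCAAT box at 142, a cyclic AMP response element at 161 and an E-box at 187. A match is a description of the letters and not a shown binding site.

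All values below are log2 signals, on which a difference of 1 is a doubling. They are read within a gene and not between genes. Array medians lay between 6.14 and 6.27. The ALA array of passage 7 stood apart, with correlations of 0.976 to 0.987 to the other arrays, against 0.989 to 0.994 among the other 11. It held the highest or lowest value for 13 of the 45 carriers (28.9%), against 44.1% of all clusters. Where it moves a difference named for 1 of the 45 carriers by over 1.5 times, the value without it is also given. The inhibitor array of passage 6 was also the extreme array for 13 carriers (28.9%, against 15.8% of all clusters). Of the 45 carriers, 27 lay above the array's median on every array, 10 lay below it on every array, and 8 crossed it. The 10 dim carriers were Slc25a2, Slc25a14, Slc25a18, Slc25a21, Slc25a27, Slc25a31, Slc25a37, Slc25a41, Slc25a48 and Slc25a54. For these the deposited processing compresses differences, so their values are the least certain. The cells carried the label of adipocytes, and all 7 measured adipocyte markers, Adipoq and Fabp4 among them, lay above the median on every array. All 4 endothelial and all 3 liver markers lay below it, as did 3 of 4 macrophage and 3 of 5 muscle markers. Of the 4 preadipocyte and fibroblast markers, 3 lay above the median on every array (Dlk1, Thy1 and S100a4) and 1 below it.

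The range over the 12 arrays was narrower for the carriers than for all clusters, in sets not matched for signal. The carriers' median signal was 7.19 to 7.61 per array, against 6.14 to 6.27 for all clusters. The ALA array of passage 7 was extreme for 28.9% of carriers and 44.1% of clusters. The part of signal and of that array in the narrower range was not tested. The median range was 0.60 for the carriers and 0.70 for all clusters. A range over 1 was found for 4 of 45 carriers (8.89%) and for 18.5% of clusters. Those 4 were Slc25a37 (1.57), Slc25a33 (1.45), Slc25a14 (1.03) and Slc25a40 (1.01). Of a carrier's sum of squares, the median share was 24.6% for treatment, 20.7% for passage and 44.7% for neither, close to the 25.3%, 23.4% and 43.8% of all clusters. Passage took the larger share in 22 carriers (48.9%, against 47.1% of clusters). It took 85.9% for Slc25a39, 83.9% for Slc25a24, 81.5% for Slc25a12 and 80.2% for Slc25a33. Treatment took 80.6% for Slc25a45, which was the largest treatment share in the family, followed by Slc25a15 at 55.1%.

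**Figure D1:**
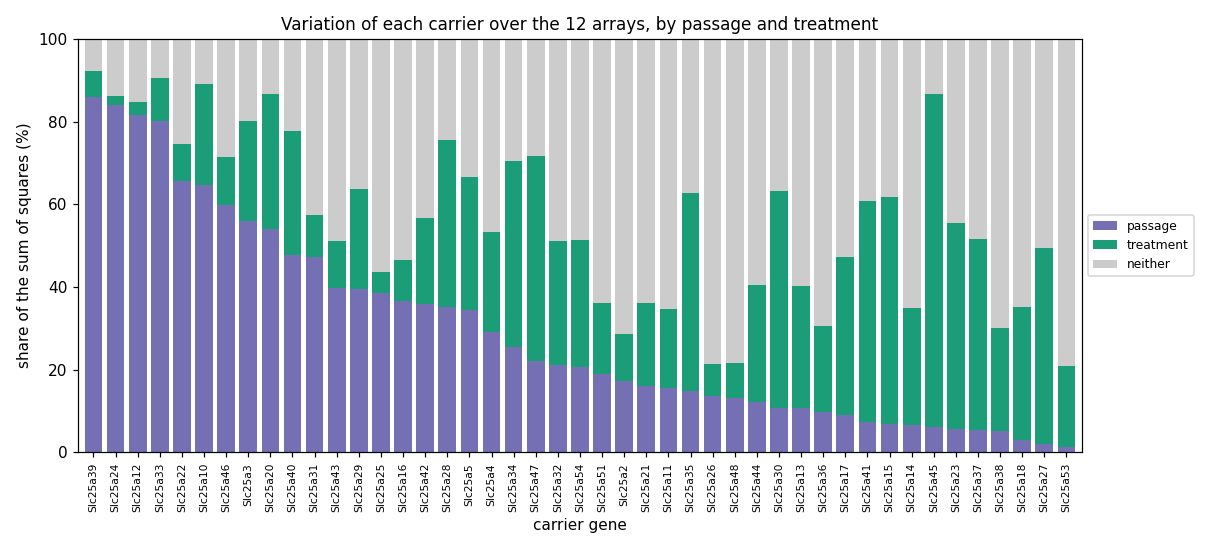
Share of the sum of squares over the 12 arrays (%, vertical axis) that lay between passages, between treatments and in neither, for each of the 45 carrier genes, ordered by the passage share. Slc25a39 stands at the left with 85.9% between passages, and Slc25a45 has the tallest treatment segment, 80.6%.

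ALA against control asks how the added fatty acid bears on the carriers. ALA left no carrier past the test: 22 were higher and 23 lower than in control, with a median difference of -0.0037 against 0.0076 over all clusters. The largest differences were 0.37 for Slc25a54, a relative of the ATP-Mg/phosphate carriers, and -0.35 for Slc25a37, the iron carrier mitoferrin 1. The Slc25a37 value rests on the control array of passage 8, without which it was -0.05 (unadjusted p = 0.852). No carrier passed an adjusted p of 0.05 (0% of all clusters passed), none reached the unadjusted 0.01 that the study's design names (0.525% of clusters did), and none reached an unadjusted 0.05, against 3.41% of clusters (limma throughout). In 2 carriers, Slc25a15 and Slc25a23, all ALA arrays lay above all control arrays, which is 4.44% of the family against 6.77% of clusters that did not overlap in either direction.

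Slc25a23, a calcium-regulated ATP-Mg/phosphate carrier, had the smallest p of the family with ALA. Its signal was 6.25, 5.99 and 6.25 in the control arrays of passages 6, 7 and 8, and 6.37, 6.66 and 6.34 in the ALA arrays. The groups did not overlap, and the highest value was that of the ALA array that stood apart. The difference was 0.29 (SE 0.15, unadjusted p = 0.0692, limma), and 0.19 without that array (unadjusted p = 0.234). Slc25a54 measured 4.96, 5.60 and 4.88 in control and 5.37, 5.68 and 5.51 with ALA, so the control array of passage 7 lay within the ALA arrays. Its unadjusted p was 0.0884, and without the control array of passage 7 the difference was 0.60 with an unadjusted p of 0.00721. Without the control array of passage 8 it was 0.24 (unadjusted p = 0.294). Slc25a15, a mitochondrial ornithine carrier, differed by 0.18 (unadjusted p = 0.167), and by 0.10 without the control array of passage 6 (unadjusted p = 0.469).

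The second comparison asked what the inhibitor did without added ALA. Here Slc25a45, a carrier of the less characterised branch, was lower, and it was the only carrier at an unadjusted p under 0.01. Its signal was 7.34, 7.23 and 7.26 in control and 6.95, 6.86 and 7.05 with the inhibitor. The inhibitor arrays all lay below the control arrays, and the mean was 6.95 ± 0.09 (SD, n = 3) against 7.28 ± 0.06. The difference was -0.33 (SE 0.11, limma unadjusted p = 0.0092), and it did not pass the adjustment over all clusters (adjusted p = 0.998). Leaving out 1 array in turn moved the unadjusted p to between 0.00749 and 0.041, the highest without the inhibitor array of passage 7 (-0.28). That 1 carrier is 2.22% of the family, against 0.855% of all clusters, and 0% of clusters passed an adjusted p of 0.05.

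As a whole the family was balanced in that comparison, with 22 higher, 23 lower and a median of -0.0016, against -0.0032 over all clusters. The groups did not overlap in 7 carriers, 15.6% of the family, against 10.8% of all clusters. Slc25a3, Slc25a10, Slc25a13 and Slc25a15 were higher on all inhibitor arrays, and Slc25a41, Slc25a45 and Slc25a47 lower. Of these, Slc25a47 (-0.36, unadjusted p = 0.0373) and Slc25a15 (0.29, unadjusted p = 0.0394) also reached an unadjusted 0.05, so 3 of 45 carriers did, against 4.32% of clusters. Slc25a15 measured 7.35, 7.58 and 7.60 in control and 7.69, 8.02 and 7.69 with the inhibitor, and without the inhibitor array of passage 7 its difference was 0.18 (unadjusted p = 0.194). The preadipocyte and fibroblast markers were lower with the inhibitor too: their mean over 4 genes was 8.35 to 8.63 on the inhibitor arrays and 8.68 to 8.80 on the control arrays. Of the 7 adipocyte markers, 6 were lower with the inhibitor as well (median -0.08). The part of these markers in the values of the carriers was not tested.

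The third comparison asked what the inhibitor changed in cells given ALA. No carrier reached an unadjusted 0.01, against 1.47% of clusters (325 clusters, or 561 with passage as a block, where the passages paired the arrays). No cluster passed an adjusted p of 0.05 (0%), and the smallest adjusted p of a carrier was 0.684. In the family 16 were higher and 29 lower, with a median of -0.0467 against -0.0173 over all clusters. In 5 carriers (11.1%) the groups did not overlap, all lower with the inhibitor: Slc25a5, Slc25a34, Slc25a43, Slc25a45 and Slc25a54. That share was 11.6% over all clusters.

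Slc25a30, an uncoupling-protein-like carrier, measured 7.19, 6.78 and 7.01 with ALA and 7.34, 7.37 and 7.18 with both agents. The difference was 0.30 (SE 0.13, limma unadjusted p = 0.0313), and 0.20 without the ALA array of passage 7 (unadjusted p = 0.126). Slc25a35 differed by -0.32 (unadjusted p = 0.0358), and by -0.28 without that array (unadjusted p = 0.0825). They were the 2 carriers at an unadjusted 0.05 here, against 7.27% of clusters. With passage as a block there were 4, adding Slc25a33 and Slc25a40, against 10.6% of clusters. Slc25a45 measured 7.26, 7.21 and 7.33 with ALA and 7.17, 7.05 and 6.95 with both agents, a difference of -0.21 (SE 0.11, unadjusted p = 0.0753).

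Slc25a45 was thus below its comparison arrays in both settings of the inhibitor, which use different arrays. Averaged over cells with and without ALA, its difference was -0.27 (SE 0.08, limma unadjusted p = 0.00376, adjusted p = 0.496), and the 6 arrays with the inhibitor did not overlap the 6 without it. This averaged contrast was added after the values of Slc25a45 had been seen, so it describes the gene and is no independent support. In it 1 carrier (2.22%) reached an unadjusted 0.01, against 1.9% of clusters, and 0% passed the adjusted threshold. At an unadjusted 0.05 there were 6 carriers, against 8.76% of clusters: Slc25a15 at 0.20, and Slc25a34, Slc25a35, Slc25a41, Slc25a45 and Slc25a47 between -0.29 and -0.22. The same average for ALA had no carrier at an unadjusted 0.01 (0.575% of clusters) and 0% of clusters past the adjusted threshold. Its only carrier at an unadjusted 0.05 was Slc25a37 (-0.47, unadjusted p = 0.0313), against 3.53% of clusters.

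With both agents against the inhibitor alone, 19 carriers were higher and 26 lower, with a median of -0.0143 against -0.0068 over all clusters. No carrier reached an unadjusted 0.01 (0.728% of clusters did), and 0% of clusters passed the adjusted threshold. Slc25a37 measured 6.13, 5.71 and 5.49 with the inhibitor and 5.47, 5.28 and 4.80 with both agents. The groups did not overlap, and the difference was -0.60 (SE 0.28, limma unadjusted p = 0.0499). Without the combined array of passage 8 it was -0.41 (unadjusted p = 0.198). Slc25a27, an uncoupling-protein-like carrier, differed by -0.35 (unadjusted p = 0.0305), and Slc25a18, a glutamate carrier, by -0.32 (unadjusted p = 0.0692). Of these, Slc25a27 and Slc25a37 were the 2 of 45 carriers at an unadjusted 0.05, against 3.56% of clusters. With passage as a block there were also 2, but they were Slc25a27 and Slc25a28, against 4.93% of clusters. The groups did not overlap in 6 carriers (13.3%, against 9.73% of clusters), Slc25a5, Slc25a18, Slc25a28 and Slc25a37 being lower and Slc25a38 and Slc25a41 higher.

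The interaction asked whether the inhibitor acted differently with and without ALA. No carrier passed: none was at an unadjusted 0.01 (0.638% of clusters) or 0.05 (3.42% of clusters), and 0% of clusters passed the adjusted threshold (limma). With passage as a block 1 carrier, Slc25a33, reached an unadjusted 0.05, against 4.65% of clusters. Without the block the smallest p was that of Slc25a54, with an interaction of -0.53 (SE 0.29, unadjusted p = 0.0886). Slc25a27 at -0.31 and Slc25a30 at 0.27 followed (unadjusted p = 0.151 and 0.153), the latter at 0.16 without the ALA array of passage 7 (unadjusted p = 0.33). The comparisons share arrays, so Slc25a54 entering several of them is 1 observation and not several.

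A treatment difference between 3 and 3 arrays had a 95% interval of 0.21 to 0.88 to either side, with a median of 0.32. The interval lay within 0.5 of 0 for 34 carriers with ALA, 30 with the inhibitor, 28 for both agents against ALA and 35 for both against the inhibitor. It lay within 1 for 44, 44, 44 and 43. A doubling by treatment is therefore outside the interval for nearly all carriers, and a difference of 0.5 is outside it for 28 to 35 of them. Differences smaller than the reach of a carrier's interval to either side were not resolved by this number of arrays.

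**Figure D2:**
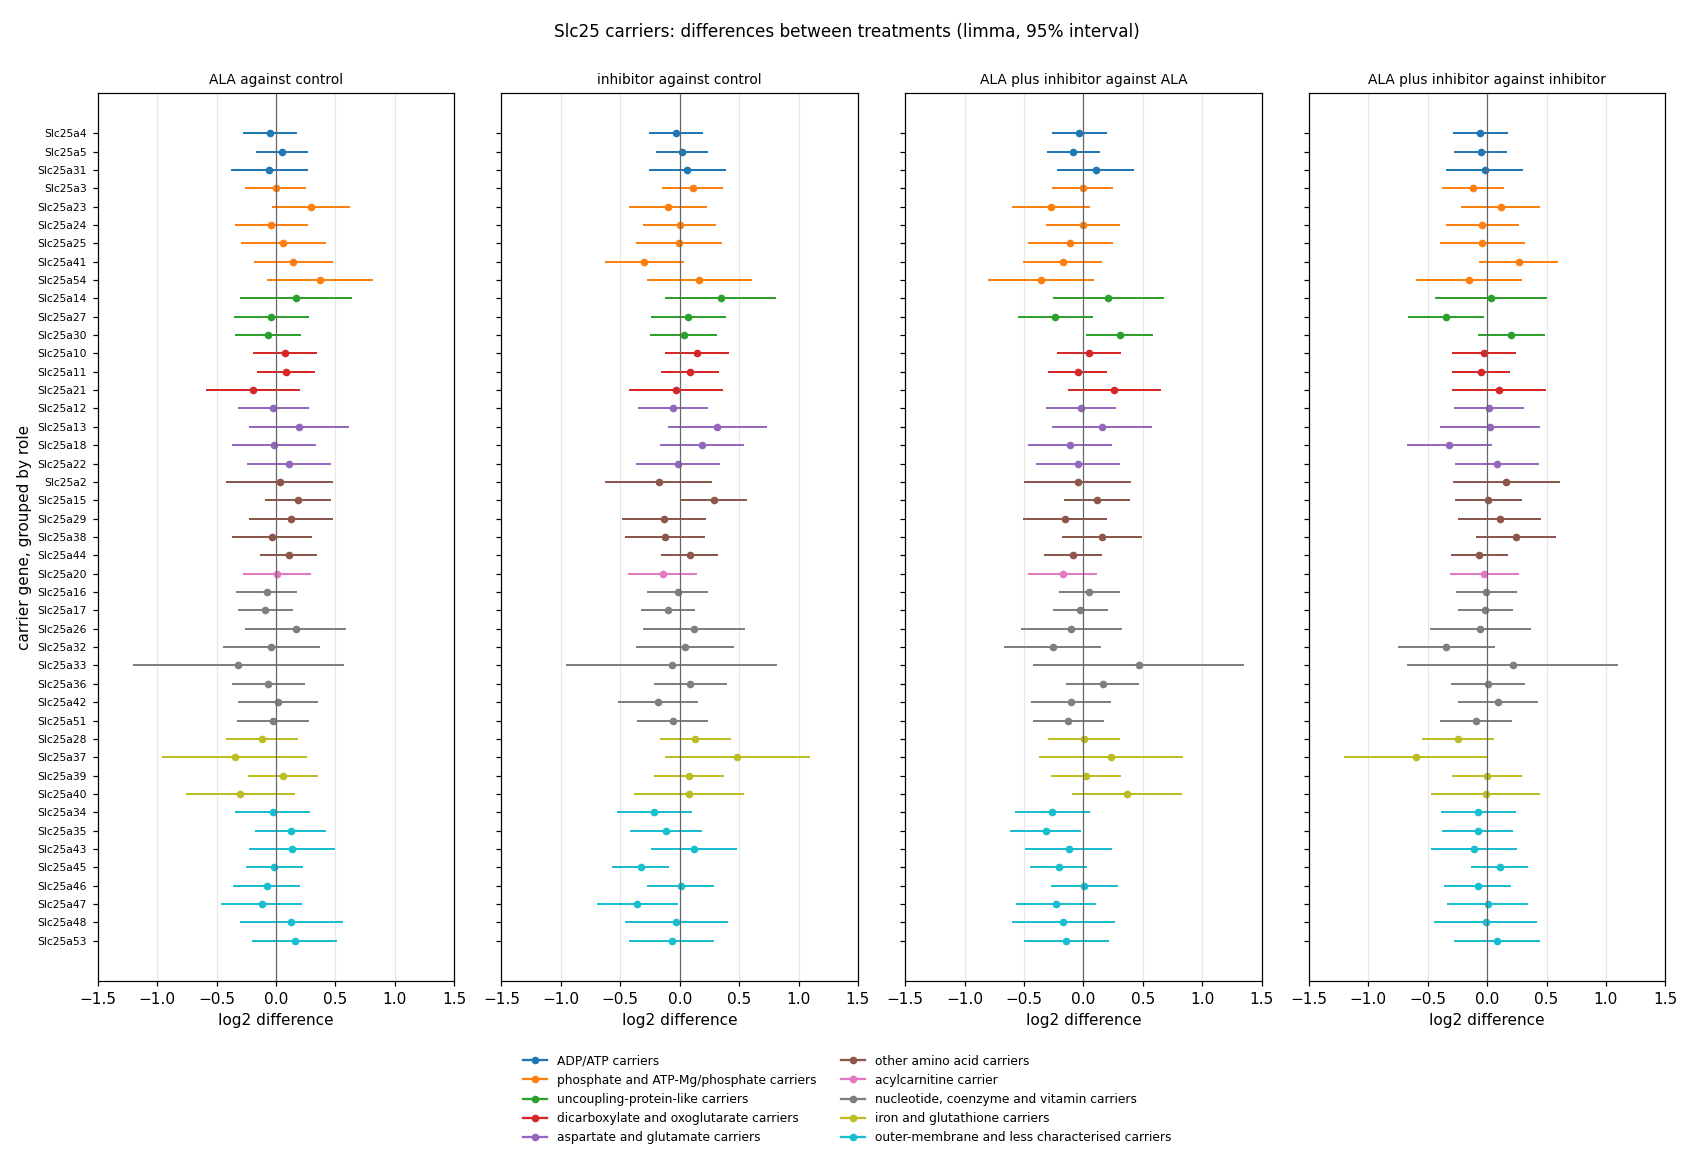
Difference in log2 signal (horizontal axis) of each of the 45 carriers in 4 treatment comparisons, with the 95% interval from limma (n = 3 arrays per group), coloured by role. Most points lie within 0.5 of 0 and most intervals cross it; Slc25a45 in the second panel is at -0.33, and Slc25a33 has the widest intervals.

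Passage divided the arrays into 4 of each passage, every one holding each treatment once. The labels do not tell whether a passage was also a separate experiment or array run, so these cannot be told apart. No passage was repeated within a treatment. A passage p-value therefore measures the spread between arrays that treatment and passage leave over, and not the spread between repeats of a passage. Slc25a33, the pyrimidine nucleotide carrier that insulin and growth factors are known to raise, fell from passage 6 to passage 8. It measured 7.16, 6.91, 7.31 and 7.22 in the control, ALA, inhibitor and combined arrays of passage 6. It measured 6.34, 5.93, 6.37 and 6.91 in passage 7, and 6.24, 5.94, 5.85 and 6.05 in passage 8. Every passage 6 array lay above every passage 8 array, and the lowest value of passage 6, in the ALA array, lay just above the highest of passage 7, in the combined array.

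The mean of Slc25a33 was 7.15 ± 0.17 (SD, n = 4) in passage 6, 6.39 ± 0.40 in passage 7 and 6.02 ± 0.17 in passage 8. Passage 8 against passage 6 gave -1.13 (SE 0.14, 95% interval -1.45 to -0.81, limma adjusted p = 0.0055, lower in 4 of 4 treatments). Passage 7 against 6 gave -0.76 (adjusted p = 0.445), with an unadjusted p of 0.000362, and 8 against 7 gave -0.37 (adjusted p = 0.203), or -0.21 without the combined array of passage 7 (adjusted p = 0.378). Leaving out any 1 array kept the first difference between -1.22 and -1.04, with an adjusted p of at most 0.0341. Without the ALA array of passage 7 it was -1.13 (adjusted p = 0.00629).

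Slc25a33 was the 1 carrier of 45 called between passages 8 and 6 (2.22%), against 1.91% of all clusters (423 clusters, 290 higher and 133 lower), a share near that of the array. At an unadjusted 0.01 there were 3 carriers (6.67%, against 5.95% of clusters), all lower in passage 8: Slc25a33, Slc25a39 and Slc25a40. In 5 carriers (11.1%, against 12.5% of clusters) the passages did not overlap, with Slc25a22, Slc25a33, Slc25a39 and Slc25a40 lower and Slc25a24 higher. Over the family 16 were higher and 29 lower, with a median of -0.0384 against -0.0128.

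Between passages 7 and 6, 0% of clusters and no carrier passed the adjusted threshold (limma), and 4 carriers reached an unadjusted 0.05, against 9.29% of clusters. At an unadjusted 0.01 only Slc25a33 did (2.22%, against 2.09% of clusters). The passages did not overlap in 5 carriers (11.1%, against 4.27% of clusters), all lower in passage 7: Slc25a12, Slc25a16, Slc25a20, Slc25a33 and Slc25a39. Between passages 8 and 7, 0.864% of clusters and no carrier passed the adjusted threshold, while 6 carriers reached an unadjusted 0.05, against 19.9% of clusters. At an unadjusted 0.01 there were 3 (6.67%, against 7.08% of clusters): Slc25a12 at 0.27, Slc25a24 at 0.26 and Slc25a22 at -0.31, with adjusted p of 0.126, 0.14 and 0.14. The passages did not overlap in 6 carriers (13.3%, against 11.2% of clusters), Slc25a12, Slc25a24, Slc25a31, Slc25a42 and Slc25a46 being higher and Slc25a39 lower in passage 8.

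Markers of adipocytes were higher in passage 8. The mean over 7 adipocyte markers was 11.99 to 12.21 on the passage 6 arrays, 12.12 to 12.16 in passage 7 and 12.27 to 12.33 in passage 8. All 7 were higher in passage 8 than in passage 6, 3 of them at an unadjusted p under 0.01 (Plin1, Retn and Cidec) and 0 at an adjusted 0.05. All 4 preadipocyte and fibroblast markers were higher too, S100a4 at an unadjusted p of 0.00201. Their part in the passage differences of the carriers was not tested, and in bulk RNA a change in the share of cells cannot be told apart from a change within cells.

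**Figure D3:**
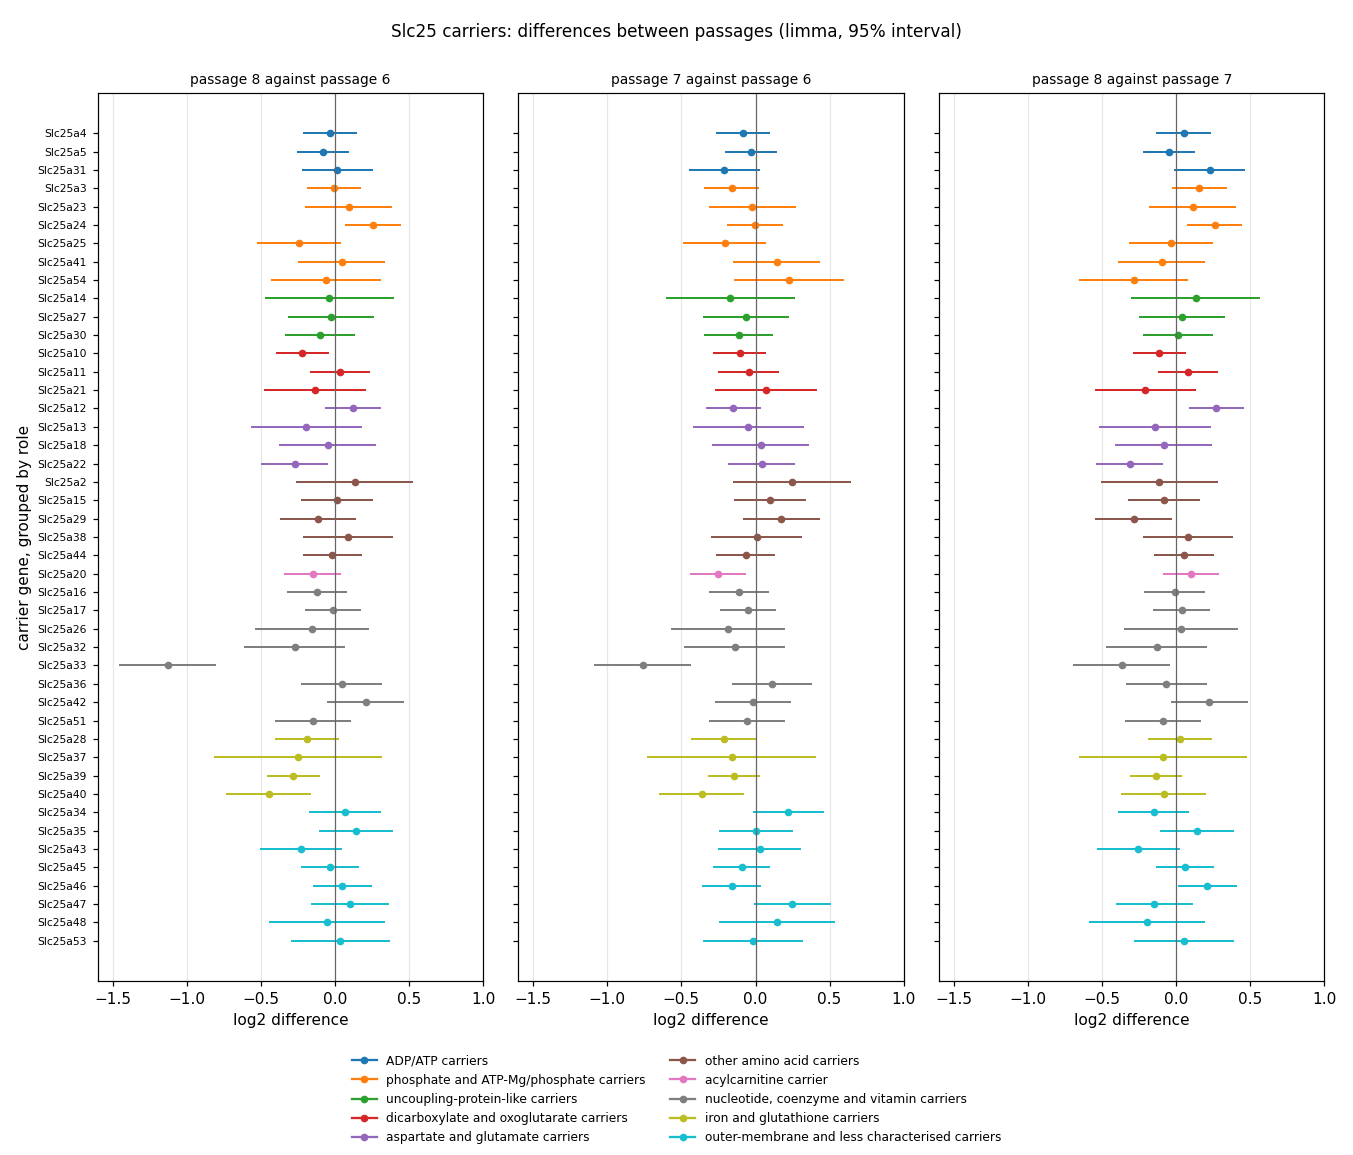
Difference in log2 signal (horizontal axis) of each of the 45 carriers between passages, with the 95% interval from limma (n = 4 arrays per passage, each of a different treatment), coloured by role. Slc25a33 stands apart at -1.13 in the first panel and -0.76 in the second. The iron and glutathione carriers all lie left of 0 in both, as do the uncoupling-protein-like carriers and Slc25a20.

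**Figure D4:**
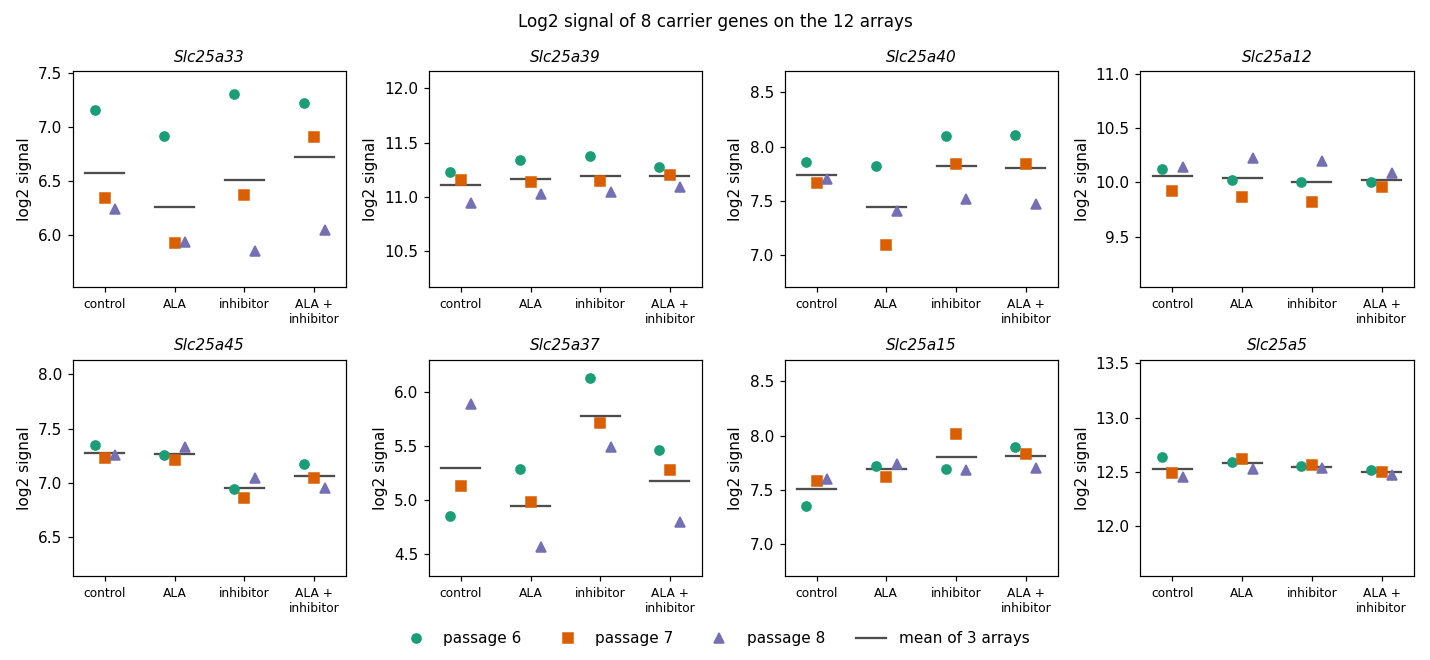
Log2 signal (vertical axis, spanning 2 log2 units in every panel) of 8 carriers on the 12 arrays, by treatment, with passage as colour and shape and a bar at the mean of 3 arrays. Slc25a39 orders by passage within every treatment, Slc25a33 is highest at passage 6 in every treatment, and Slc25a45 is lower in both groups with the inhibitor.

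The carriers of ADP, ATP and phosphate supply the ATP synthase with its substrates. Slc25a4 and Slc25a5, the ADP/ATP carriers of heart and muscle and of growing cells, were among the steadiest members. Slc25a4 lay between 11.69 and 11.90 and Slc25a5 between 12.45 and 12.64 over the 12 arrays, and their 8 treatment differences were all between -0.09 and 0.05. Slc25a5 measured 12.59, 12.62 and 12.53 with ALA and 12.51, 12.50 and 12.47 with both agents, groups that did not overlap but differed by only -0.09 (limma unadjusted p = 0.402). RefSeq lists a pseudogene of Slc25a5, and whether the probes separate it was not tested. Slc25a31, the germ cell form, lay between 2.49 and 3.04.

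Slc25a3, the phosphate carrier, measured 11.52, 11.37 and 11.50 in control and 11.64, 11.53 and 11.55 with the inhibitor. Those groups did not overlap, and the difference was 0.11 (limma unadjusted p = 0.359). The ATP-Mg/phosphate carriers, which let calcium adjust the matrix pool of adenine nucleotides, did not move as 1 group. With ALA, 4 of the 6 carriers of phosphate and ATP-Mg were higher, and with both agents against ALA all 6 were lower (median -0.14). None of these reached an unadjusted 0.05. Slc25a24 separated by passage, at 7.84, 7.83, 7.89 and 7.95 in the control, ALA, inhibitor and combined arrays of passage 6 and 8.23, 8.16, 8.13 and 8.03 in passage 8. Every passage 8 array was above every passage 6 array, with a difference of 0.26 (SE 0.08, adjusted p = 0.17). Slc25a25, the stress- and cyclic-AMP-responsive member, lay between 6.99 and 7.61, with no treatment difference beyond 0.11 in size.

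The uncoupling-protein-like carriers Slc25a14, Slc25a27 and Slc25a30 are relatives of the protein that dissipates the proton gradient in brown fat. Slc25a14 had a range of 1.03, set by a control array at 4.23 and an inhibitor array at 5.26, both of passage 6. Against control it differed by 0.17 with ALA and 0.34 with the inhibitor (limma unadjusted p = 0.441 and 0.13). Without the inhibitor array of passage 6 the latter was 0.13 (unadjusted p = 0.547), and without the ALA array of passage 6 the former was 0.01 (unadjusted p = 0.978). Without the ALA array of passage 7 the ALA difference was 0.32 (unadjusted p = 0.184). Slc25a27 measured 5.27, 5.43 and 5.00 with the inhibitor and 5.04, 4.77 and 4.85 with both agents, so the lowest inhibitor array lay within the combined group. Without the inhibitor array of passage 7 the difference was -0.25 (unadjusted p = 0.136), and without that of passage 8 it was -0.46 (unadjusted p = 0.0087). Ucp1 itself differed by 0.40 with ALA (unadjusted p = 0.0326, adjusted p = 1), on a cluster below the array's median.

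Slc25a10 and Slc25a11, the dicarboxylate and the oxoglutarate/malate carrier, exchange malate for phosphate or oxoglutarate and take part in the malate traffic of lipogenic cells. Slc25a10 measured 11.64, 11.63 and 11.50 in control, 11.76, 11.68 and 11.54 with ALA, and 11.89, 11.66 and 11.65 with the inhibitor. It was higher than control in all 3 passages with ALA (0.07) and with the inhibitor (0.15), at unadjusted p of 0.546 and 0.242 (limma). By passage it was lower in 8 than in 6 in 4 of 4 treatments (-0.22, SE 0.08, adjusted p = 0.212). Slc25a11 lay between 10.60 and 10.90, with treatment differences of at most 0.09. Slc25a21, the oxodicarboxylate carrier, was at 2.48 to 3.06, near the bottom of the scale.

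Slc25a12 and Slc25a13 export aspartate in exchange for glutamate and form part of the malate-aspartate shuttle. Slc25a12 separated by passage, at 10.12, 10.03, 10.00 and 10.01 in the control, ALA, inhibitor and combined arrays of passage 6, 9.92, 9.87, 9.82 and 9.96 in passage 7, and 10.14, 10.23, 10.20 and 10.09 in passage 8. Passage 7 was the lowest in every treatment and did not overlap either of the others. The treatment differences of Slc25a12 were all between -0.06 and 0.01. Without the ALA array of passage 7 they were 0.06 for ALA against control and -0.11 for both agents against ALA. Slc25a13 varied without such order, with a range of 0.98, and was higher with the inhibitor than in control on all arrays (0.32, SE 0.19, limma unadjusted p = 0.119).

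Slc25a22, the main mitochondrial glutamate carrier, was lowest in passage 8, at 8.79, 8.99, 8.89 and 9.12 in the control, ALA, inhibitor and combined arrays. The passage 6 arrays lay at 9.21, 9.22, 9.25 and 9.19. The groups did not overlap, and the difference was -0.27 (SE 0.10, limma adjusted p = 0.225). Slc25a18, the other glutamate carrier, was dim, at 4.35 to 5.00.

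Among the other amino acid carriers, Slc25a15 brings ornithine into the matrix for the urea cycle and for related steps. Its control arrays were lowest, at 7.35 to 7.60, and the ALA arrays lay at 7.62 to 7.74, the inhibitor arrays at 7.69 to 8.02 and the combined arrays at 7.70 to 7.90. All 9 treated arrays were above all 3 control arrays. The ALA and inhibitor differences share those controls, so a low control group would raise both. Slc25a38, the glycine carrier of heme synthesis, measured 7.47, 7.79 and 7.76 with the inhibitor and 7.91, 8.01 and 7.83 with both agents (0.24, limma unadjusted p = 0.134, and 0.14 without the inhibitor array of passage 6). Slc25a44, the branched-chain amino acid carrier that brown fat uses, stayed between 9.40 and 9.65, with treatment differences of at most 0.11 in size.

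Slc25a20 carries acylcarnitines into the matrix, the step by which long-chain fatty acids reach oxidation. It measured 7.82, 7.42 and 7.57 in control, 7.78, 7.49 and 7.56 with ALA, 7.53, 7.34 and 7.50 with the inhibitor and 7.50, 7.39 and 7.40 with both agents. ALA and control differed by 0.01 (95% interval -0.27 to 0.29, limma), and by 0.07 without the ALA array of passage 7 (unadjusted p = 0.635). The inhibitor arrays were lower than control in 3 of 3 passages (-0.14, unadjusted p = 0.289), and the combined arrays lower than ALA in 3 of 3 (-0.17, unadjusted p = 0.202, and -0.09 without the ALA array of passage 6). Passage 7 lay below passage 6 in all 4 treatments (-0.25, SE 0.08, adjusted p = 0.472).

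The carriers of nucleotides, coenzymes and vitamins were 8 genes, of which Slc25a33 was the 1 called between passages. Slc25a36, its closest relative in substrate, lay between 8.54 and 9.07 and differed by 0.04 between passages 8 and 6 (limma adjusted p = 0.902). The difference between the pair was not tested. With treatment Slc25a33 spread so widely that a difference of 0.47 between both agents and ALA had an unadjusted p of 0.271. The passages lie inside each treatment group. With passage as a block that p was 0.0188 (adjusted p = 0.416). Within passages 6, 7 and 8 the differences were 0.31, 0.98 and 0.11, and without the ALA array of passage 7 the unblocked difference was 0.30 (unadjusted p = 0.527).

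Slc25a32, the carrier of folate and flavin, measured 6.35, 6.42 and 6.09 with the inhibitor and 6.14, 5.97 and 5.72 with both agents (-0.34, limma unadjusted p = 0.0875). Slc25a51, the NAD carrier, lay between 10.18 and 10.61, with treatment differences between -0.13 and -0.02. Slc25a16 and Slc25a42, linked to coenzyme A, and Slc25a17, a peroxisomal carrier of cofactors, had treatment differences of at most 0.18 in size. Slc25a26, which imports S-adenosylmethionine, ranged over 0.85 without a treatment difference beyond 0.16.

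The iron and glutathione carriers are the mitoferrins Slc25a28 and Slc25a37 and the glutathione carriers Slc25a39 and Slc25a40. Between passages all 4 were lower in passage 8 than in 6 (median -0.27) and in passage 7 than in 6 (median -0.19). So were all 3 uncoupling-protein-like carriers and the acylcarnitine carrier Slc25a20, and both comparisons share the passage 6 arrays. Slc25a39 measured 11.23, 11.34, 11.38 and 11.27 in the control, ALA, inhibitor and combined arrays of passage 6, 11.16, 11.14, 11.14 and 11.20 in passage 7, and 10.95, 11.02, 11.04 and 11.09 in passage 8. The 3 passages did not overlap, with a difference of -0.28 between 8 and 6 (SE 0.08, limma adjusted p = 0.11). An intensity trend in the variance, or leaving out the dimmest 30% of clusters, brought that adjusted p to 0.00309 and 0.0478.

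Slc25a40 measured 7.85, 7.82, 8.10 and 8.10 in passage 6 and 7.70, 7.41, 7.51 and 7.47 in passage 8, in the same order. The passages did not overlap, with a difference of -0.45 (SE 0.13, limma adjusted p = 0.121), and without the ALA array of passage 7 the adjusted p was 0.0471. That ALA array, at 7.09, was the lowest of the 12 for this gene. Slc25a37 had the widest range in the family and no passage order common to all treatments. In passages 6, 7 and 8 it measured 4.85, 5.14 and 5.89 in control and 5.29, 4.98 and 4.57 with ALA. It measured 6.13, 5.71 and 5.49 with the inhibitor, and 5.47, 5.28 and 4.80 with both agents. So it rose by passage in control and fell by passage in each of the other groups. Its control arrays spanned most of the range, and with all arrays no difference from control reached an unadjusted 0.05. Its inhibitor difference of 0.49 (unadjusted p = 0.103) was 0.78 without the control array of passage 8 (unadjusted p = 0.00981) and 0.27 without that of passage 6 (unadjusted p = 0.377). Slc25a28 lay between 7.98 and 8.49, lower with both agents than with the inhibitor on all arrays (-0.25, unadjusted p = 0.0926, and -0.16 without the combined array of passage 8).

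Of the outer-membrane and less characterised carriers, Slc25a46 sits in the outer membrane and takes part in mitochondrial dynamics. It lay between 9.55 and 9.97, the lowest value being the ALA array of passage 7, and its treatment differences were between -0.08 and 0.01. Without that array the difference was 0.06 with ALA and -0.13 for both agents against ALA. In this group of 8, 6 were lower with the inhibitor than in control and 7 were lower with both agents than with ALA. Slc25a45 accounts for the single value at an unadjusted 0.01. Slc25a47, known mainly from liver, measured 6.42, 6.45 and 6.37 in control and 5.96, 6.27 and 5.94 with the inhibitor, groups that did not overlap. Slc25a34 and Slc25a35, which resemble each other in sequence, were lower with both agents than with ALA in 3 of 3 passages (-0.26 and -0.32). Slc25a43, Slc25a48 and Slc25a53 had treatment differences of at most 0.17 in size.

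Other mitochondrial genes were counted for comparison. None of the 4 measured carrier-family genes with other symbols (Ucp1, Ucp3, Mtch1 and Mtch2), the 10 other inner-membrane transporters, the 15 channel and import genes, the 9 matrix enzymes or the 8 biogenesis regulators reached an unadjusted 0.01 in any treatment or passage comparison (limma). Mtch2, a carrier relative in the outer membrane, differed by 0.13 with ALA and -0.08 with the inhibitor. Vdac1, the outer-membrane channel, differed by -0.10 and 0.03, and Cs, citrate synthase, by 0.04 and 0.10. The ALA array of passage 7 held the highest of the 12 values for Mtch2 (11.85) and the lowest for Vdac1 (10.65) and Cs (11.23). The ALA differences of these genes without that array are not given here. Between passages 8 and 6 the biogenesis regulators were all 8 higher (median 0.09), while 29 of the 45 carriers and 10 of the 15 channel and import genes were lower. Between passages 7 and 6, 12 of those 15 and 8 of the 9 matrix enzymes were lower. Over all clusters 47.1% were higher in passage 8 than in 6, and 51.1% were higher in passage 7 than in 6. These counts of direction were not tested.

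Promoter windows, from 250 bases before to 50 after an annotated start, were found for 35 of the 45 carriers (45 windows, RefSeq, GRCm38.p6). Their median GC content was 59%, against 52.7% over 32851 windows. The GC box was present in 82.2% of the carriers' windows and 35.7% of all windows, the CCAAT box in 46.7% and 37.4%, and the E-box in 15.6% and 7.15%. The cyclic AMP response element was present in 4.44% and 1.79%, the NRF1 core GCATGCGC in 4.44% and 2.71%, and the TATA box TATAAA in 4.44% and 13.6%. Both strands were searched, no motif contains another, and windows of 1 gene can overlap.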

How the data were processed

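RNA from the 12 cultures was measured on whole-transcript arrays. The authors deposited a log2 signal for each transcript cluster on each array. Per the submitters' processing notes it was computed with RMA, which corrects background, normalizes and summarises probes; the sources used here give no version of it. Gene symbols are those of GEO's array annotation. Slc25a52 and Ucp2 were not analysed here. Tests used R 4.3.3 and limma 3.58.1 on all 22104 clusters with no filter: 1 coefficient per treatment (8 residual and 4.66 prior degrees of freedom), or treatment plus passage (6 and 3.96), two-sided, with Benjamini-Hochberg adjustment over all clusters. A call was an adjusted p under 0.05; the study's design names an unadjusted 0.01. Named were carriers at that p (otherwise the 3 smallest), the 5 widest in range and a list by role. The members and lists were chosen with earlier results of these data known. The fits were tested on simulated data. Passage numbers were taken to pair arrays where deviations from group means correlated above 0.1 in every passage, which held only for ALA plus inhibitor against ALA (0.163, 0.163 and 0.235). For ALA against control the correlations were 0.013, 0.338 and 0.459, so in passages 7 and 8 they were higher than for that pair. Treatment p-values and intervals are from the fit without passage unless a block is named. Arrays give no read depth; their number limits the precision. The arrays were also refitted with the alternatives named in the closing section.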

Additional observations from a re-analysis of the deposited data

How the results depend on the processing

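Slc25a33 kept its call between passages 8 and 6 under every alternative run. Of 3758 refitted values of named carriers, 204 lay on the other side of 0 from the reported value, in 82 of 197 results. Each of these had a reported difference of at most 0.22 in size, below the threshold; Slc25a46 with ALA, for example, went from -0.08 to 0.06 without the ALA array of passage 7. With passage as a replicate block, the carriers at an unadjusted 0.01 numbered 0 with ALA, 1 with the inhibitor and 0 in the other treatment comparisons, the same counts as without it, although over all clusters the counts rose from 116 to 186 (ALA), 189 to 322 (inhibitor), 161 to 234 (both against inhibitor) and 325 to 561 (both against ALA). For the other pairs of groups the correlations of deviations from group means were not above 0.1 in every passage. That does not show that their passages were unrelated. For the inhibitor the count of 1 carrier became 2 with array weights (Slc25a45 and Slc25a15) and 0 with arrays centred on their medians, with an intensity trend, or with only the arrays compared. Leaving out 1 array gave 0 to 1, and Slc25a45 then had an unadjusted p of 0.00749 to 0.041, under 0.01 only without the ALA array of passage 7 or the inhibitor array of passage 8. Without the control array of passage 8 the 1 carrier was Slc25a37 (0.78, unadjusted p = 0.00981). Both agents against the inhibitor gave 1 with array weights (Slc25a27), and 0 to 1 when leaving out 1 array. ALA against control gave 0 to 1 (Slc25a54 without the control array of passage 7). Both agents against ALA gave 0 to 1, with Slc25a30 at an unadjusted p of 0.00995 without the ALA array of passage 6. Calls between passages 8 and 6 rose from 1 to 2 without the dimmest 30% of clusters and to 4 with an intensity trend (adding Slc25a10, Slc25a39 and Slc25a40), and were 1 to 2 leaving out 1 array. Between passages 8 and 7 an intensity trend gave 2 (Slc25a12 and Slc25a22). The family's median with ALA ranged from -0.0118 to 0.0456 and with the inhibitor from -0.0197 to 0.0527, so neither has a settled sign. Over all clusters the calls between passages 8 and 6 ranged from 140 to 1163, against 423, and between 8 and 7 from 2 to 1163, against 191. Clusters below the array's median limit what can be said of the 10 dim carriers.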
